A study of Mus musculus with 9 samples.

Results

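Constant regions inside genes are stretches of open chromatin that were called as a peak in all 9 libraries of the series and whose midpoint lay within a protein-coding gene, more than 1 kb from any protein-coding gene end. Peaks of the 9 lists that overlapped by at least 1 bp were joined into 116362 union regions. Of these, 26020 had a peak in every library, and 8061 of the 26020 (31.0%) lay inside genes by this rule, against 7732 at gene ends and 10227 between genes. The regions were chosen by the presence of peaks and by position alone, so the word constant refers to presence and not to peak strength.

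The assay was ATAC-seq, which marks accessible DNA by where the transposase Tn5 can insert its adapters. The cells were mouse embryonic stem cells of the E14 line, in a variant that the labels call TOT2N. Each of 3 lines gave 3 libraries: wild type cells (WT), cells with a stably integrated TetR construct, and cells with a stably integrated TetR-MYBTA construct. TetR alone is a bacterial repressor that binds its own operator sequence, the MYB named in the series title is a transcription factor best known from blood progenitors, and all lines share the E14 (TOT2N) background. The labels do not say whether the libraries of a line came from separate cultures, nor whether a construct line is a clone or a pool. Every p-value below therefore measures the spread between these libraries, which may be technical, and a difference between lines cannot be told apart from a difference between the cells that founded them.

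Open regions within genes include enhancers in introns, alternative promoters, and binding sites of architectural proteins. An intronic enhancer can act on its host gene or on another gene, and open chromatin shows neither its target nor its activity. Alternative promoters start shorter or differently begun transcripts of the same gene, a well known case being the neurexins, whose short form starts deep inside the gene.

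Total tags per library ranged from 16.4 to 23.0 M (M for mega), of which 5.48 to 9.78% lay in peaks, and the lists held 45136 to 70230 peaks. Of the embryonic stem cell markers, Sox2, Klf4, Esrrb, Prdm14 and Tfcp2l1 had a peak in or within 1 kb of the gene in all 9 libraries, Pou5f1 in 7, and Nanog and Zfp42 in 4 each. The feeder marker Postn and the blood markers Gata1 and Csf1r had a peak in 0 libraries, and the trophoblast marker Krt7 in 1. Other markers of these types did have peaks: the remaining 7 of 8 feeder markers in 6 to 9 libraries, Mpo in 4, Ptprc, Spi1, Elf5 and Gata3 in all 9, and Cdx2 in 8.

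The lists give no usable peak height, since their score is 1 in every row, but their rows run from strong to weak. Strength was therefore read as a place: the percentile of a region among the 26020 constant regions of the same library, with 100 the strongest. Tied rows, which also let tag levels be estimated, shared their mean place. A place is relative, so a region can lose place while other regions gain.

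Where a constant region lay over an annotated transcription start inside its host gene, RefSeq gives the sequence. A start window here runs from 250 bases before to 50 bases after a start. In all, 845 of the 8061 regions (10.5%) overlapped such a window, 766 of them (9.50%) a window of their own host gene. The share was 2.78% among the 37185 regions inside genes that lacked a peak in at least 1 library, and 68.02% among constant regions at gene ends. The 6 sequences below are the 250 bases before the start for the host-gene starts found among the 10 strongest regions and among the regions with the largest differences between lines. They are from RefSeq (GRCm38.p6), run 5′ to 3′ on the strand of the gene, and capitals mark matches to 7 motifs searched on both strands.
Nrxn3: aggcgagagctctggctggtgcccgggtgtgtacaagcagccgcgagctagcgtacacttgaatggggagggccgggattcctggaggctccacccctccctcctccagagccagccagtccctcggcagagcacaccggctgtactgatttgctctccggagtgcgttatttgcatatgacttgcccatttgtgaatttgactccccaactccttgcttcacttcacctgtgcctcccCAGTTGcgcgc
Kifap3: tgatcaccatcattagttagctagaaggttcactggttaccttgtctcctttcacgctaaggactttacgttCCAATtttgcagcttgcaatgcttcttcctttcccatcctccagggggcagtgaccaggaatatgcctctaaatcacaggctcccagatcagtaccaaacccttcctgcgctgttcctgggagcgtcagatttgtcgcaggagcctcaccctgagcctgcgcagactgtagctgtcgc
Cast: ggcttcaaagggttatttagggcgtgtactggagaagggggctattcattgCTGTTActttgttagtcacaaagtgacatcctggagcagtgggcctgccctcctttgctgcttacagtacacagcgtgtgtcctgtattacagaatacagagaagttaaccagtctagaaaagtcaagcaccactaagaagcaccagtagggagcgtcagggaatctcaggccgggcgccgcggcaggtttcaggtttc
Gpr108: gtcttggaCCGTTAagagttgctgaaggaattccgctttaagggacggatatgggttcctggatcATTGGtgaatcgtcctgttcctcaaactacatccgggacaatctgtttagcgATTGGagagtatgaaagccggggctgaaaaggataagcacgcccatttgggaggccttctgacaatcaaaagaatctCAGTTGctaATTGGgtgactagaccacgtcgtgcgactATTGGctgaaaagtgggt
Msl3: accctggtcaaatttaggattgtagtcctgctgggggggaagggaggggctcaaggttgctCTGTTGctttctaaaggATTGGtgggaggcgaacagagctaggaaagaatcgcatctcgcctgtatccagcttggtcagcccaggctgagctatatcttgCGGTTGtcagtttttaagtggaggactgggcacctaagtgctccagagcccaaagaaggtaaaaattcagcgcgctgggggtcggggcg
Akap7: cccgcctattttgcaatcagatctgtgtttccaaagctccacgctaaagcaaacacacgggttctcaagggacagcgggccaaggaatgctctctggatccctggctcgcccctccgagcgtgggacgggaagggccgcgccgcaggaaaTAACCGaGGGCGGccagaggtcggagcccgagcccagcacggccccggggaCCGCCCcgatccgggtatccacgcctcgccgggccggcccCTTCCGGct

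The Nrxn3 window lies at chr12:89812233-89812482 on the plus strand, and the open region covers all 250 of its bases. Nrxn3 encodes a neurexin, a presynaptic adhesion protein. The Kifap3 window, at chr1:163779333-163779582 on the plus strand, shares 153 bases with its region, and Kifap3 encodes the adaptor subunit of kinesin-2. The Cast window, at chr13:74770737-74770986 on the minus strand, shares 130 bases, and Cast encodes calpastatin, the inhibitor of calpain proteases. The Gpr108 window, at chr17:57247690-57247939 on the minus strand, shares 184 bases and holds 4 CCAAT matches. The Msl3 window, at chrX:168673026-168673275 on the minus strand, shares 141 bases, and Msl3 encodes a subunit of the MSL histone acetyltransferase complex. The Akap7 window, at chr10:25297080-25297329 on the minus strand, shares 175 bases and holds 2 GC boxes, and Akap7 encodes an anchoring protein for protein kinase A.

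The motifs were the GC box (GGGCGG), the box named CCAAT, the TATA box (searched as TATAAA), the cyclic AMP response element (TGACGTCA), an ETS motif (CCGGAAG), a MYB motif (TAACNG, and equally CAACNG) and an E-box (CACGTG). No motif contains another. In the 854 windows of host-gene starts under the regions, 59.6% held a GC box, against 32.7% of all 32851 annotated windows. TATAAA was in 4.57% and 12.4%, the ETS motif in 11.2% and 6.91%, CCAAT in 37.9% and 33.8%, and the MYB motif in 39.5% and 43.1%. The cyclic AMP response element was in 2.69% and 1.55%, and the E-box in 7.61% and 6.02%. Median GC content was 60.4% against 52.4%, and a ratio of observed to predicted CpG above 0.6 was found in 63.9% against 34.0%. These shares are a description, since open chromatin was a condition for entering the first set, and a match is not a bound site.

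The first question was how strong these regions were and how they were placed in genes. Among the 10 strongest by mean place over the 9 libraries were regions in Kcnt2, Grik2, Trdn, Gpr108, Slc6a15, Cast, Kifap3, Gpm6a and Nrxn3. The strongest, in the sodium-activated potassium channel gene Kcnt2 (chr1:140429371-140429582), had places from 99.7 to 100 over the 9 libraries and lies beyond 88 Mb on chromosome 1. The next, in the kainate receptor gene Grik2 (chr10:49417334-49417555), ranged from 99.8 to 99.9. Both lay away from annotated starts, whereas 4 of the 10 (Gpr108, Cast, Kifap3 and Nrxn3) lay at a start of their host gene. The region in Slc6a15, an amino acid transporter gene, lay over a start of another annotated gene, 6430590A10Rik.

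As a class the regions inside genes were weaker than those at gene ends. Their median place was 45.6 ± 0.548 (SD, n = 3) in the TetR line, 42.7 ± 0.418 (SD, n = 3) in wild type cells and 42.6 ± 0.499 (SD, n = 3) in the TetR-MYBTA line. In the same order of lines, regions at gene ends had 64.7 ± 0.432, 69.7 ± 0.677 and 62.1 ± 0.922, and regions between genes 41.8 ± 0.604, 40.1 ± 0.873 and 47.7 ± 0.160 (SD, n = 3 each). These were above the regions inside genes at gene ends in each line, and between genes in TetR-MYBTA. For the regions inside genes, the 3 TetR values lay above all 6 others, and the TetR-MYBTA and WT values overlapped. The difference was -3.01 points for TetR-MYBTA against TetR and 2.98 for TetR against WT, each with an exact two-sided permutation p = 0.1 (0.2 adjusted over 4 comparisons), the smallest that 3 against 3 libraries allow. TetR-MYBTA and WT differed by -0.03 points (exact permutation p = 0.9), a sign that turned when libraries were left out. Among the first 10000 rows of each list, these regions made up 23.5% ± 0.222 in the TetR line, 21.6% ± 0.439 in wild type cells and 21.3% ± 0.222 in the TetR-MYBTA line (SD, n = 3), with the same exact p = 0.1 for TetR against each of the others (0.133 adjusted).

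**Figure D1:**
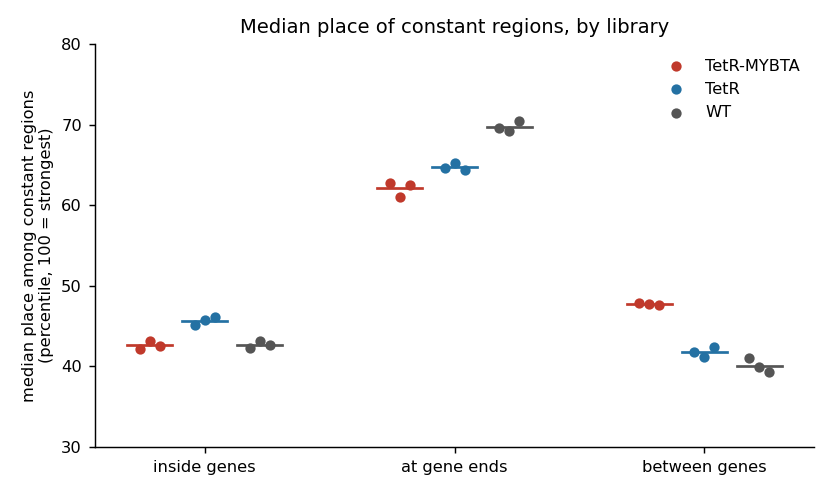
Median place of constant regions (percentile among the 26020 constant regions, 100 the strongest) for regions inside genes, at gene ends and between genes. Points are libraries, 3 per line, and short lines are means; inside genes the TetR libraries sit above 45 and the other 6 below 44.

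Presence in every library did not mean equal strength. Over the 9 libraries the place of a region inside a gene ranged over a median of 36.3 points, against 29.0 at gene ends and 37.0 between genes. In 359 regions the range was under 10 points, and in 1577 (19.6%) it was over 50. Within lines the libraries correlated at 0.81 to 0.89 across the 8061 regions and between lines at 0.63 to 0.76, a description across regions that share each library's depth and chromosome content.

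Most of these regions lay far from gene ends and in long genes. The median distance to the nearest gene end was 18.9 kb and the median host gene was 109 kb long. Density fell from 18.8 regions per Mb of gene interior at 1 to 2 kb from an end to 5.43 at over 100 kb, with 8.15 over all. Regions inside genes without a peak in all libraries fell from 70.1 to 24.5 per Mb over the same bins. Where RefSeq start windows gave the gene's direction, 55.0% of 6265 regions lay nearer the start than the other end, and 51.1% of the 5455 among them that lay off annotated starts.

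**Figure D2:**
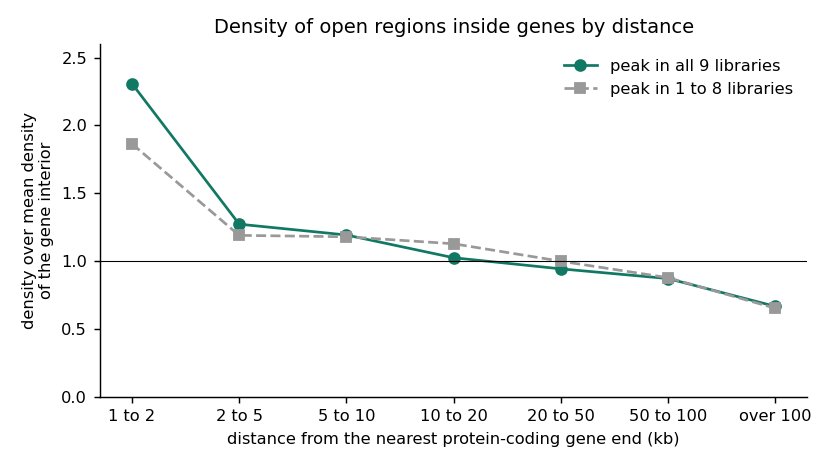
Density of open regions by distance from the nearest protein-coding gene end (kb), divided by the mean density over the gene interior, for regions with a peak in all 9 libraries and in 1 to 8. Both curves fall with distance, from 18.8 to 5.43 regions per Mb for the first set.

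The regions were spread over 4606 genes, 23.9% of the 19304 protein-coding genes longer than 2 kb. In 2962 of them there was 1 region, in 244 there were 5 or more, and in 31 there were 10 or more. The genes with the most regions were Pde4d, a cyclic AMP phosphodiesterase gene, with 27, and Dlg2, encoding a postsynaptic scaffold protein, with 19. They were followed by Nrxn3 with 18, the teneurin gene Tenm3 with 16, the scaffold gene Magi2, Macrod2 and the adhesion gene Lsamp with 15 each, and Etl4 and Cntn5 with 14 each. All of these are over 900 kb long. Long genes did not always hold one: 810 of 2429 genes over 100 kb (33.3%) had no constant region inside.

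Per kb, the genes with at least 3 regions that ranked highest were Casq1, Tor3a, Man2b1, Ccdc61, Kdm6b, Pax6, Tfap2a and Camkk1. Casq1, the calsequestrin of skeletal muscle, had 3 regions in 10.002 kb. Kdm6b, a histone H3K27 demethylase gene, had 3 in 21.9 kb, and Pax6, an eye and forebrain regulator, had 4 in 29.5 kb. Neighbours within 12.5 kb were found for 26.1% of the regions, against 16.1% at gene ends and 27.6% between genes. The longest such chain was 6 regions over 42.4 kb in Elavl2, a neuronal RNA-binding protein gene. The tightest chain of 5 spanned 13.2 kb in Kdm4c, a histone H3K9 demethylase gene, and reached a mean place of 95.7.

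Of the core pluripotency genes, Pou5f1, Nanog, Sox2, Klf4, Prdm14 and Zfp42 held 0. These genes are 2.47 to 13.7 kb long, so the rule leaves little interior to hold a region. Sox2 and Prdm14 each had 1 constant region that was not inside by the rule. Of the 28 core and naive pluripotency genes over 2 kb long, 10 held 22 regions, or 22.5 per Mb of interior against 8.17 over all protein-coding genes. Density over all genes fell from 17.2 per Mb in genes of 2 to 5 kb to 6.46 in genes over 200 kb. Median gene length was 12.8 kb in this list, 77.6 kb in the neural list and 21.3 kb over all. Densities were not compared at equal gene length. Esrrb, an orphan nuclear receptor of the naive state, held 6. Tet2, a 5-methylcytosine dioxygenase gene, held 4, and Tfcp2l1 and Nr5a2, both regulators of naive pluripotency, held 3 each. Formative and primed genes had 13 regions (17.6 per Mb), DNA methylation genes 13 (18.02 per Mb), trophoblast genes 6 (16.2 per Mb) and neural genes 117 (7.70 per Mb). Signalling genes had 18 (7.05 per Mb), chromatin regulators 48 (8.81 per Mb), blood progenitor genes 20 (9.98 per Mb), mesoderm and endoderm genes 10 (10.5 per Mb) and germ cell genes 4 (9.31 per Mb). Housekeeping genes had 4 regions in 3 of 30 genes, fibroblast genes 3 in 2 of 16, and MYB family and cofactor genes 4 in 3 of 14. The lists share genes: Tet1, Tet2, Dnmt3l and Dnmt3a are counted under DNA methylation and again under a pluripotency list.

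The second question was which of these regions differed between TetR-MYBTA and the matched TetR line. With limma on normal scores of place across all 26020 constant regions and Benjamini-Hochberg adjusted p under 0.05, 2207 of the 8061 regions (27.4%) were called, against 26.9% of all constant regions. Of these, 881 were higher in TetR-MYBTA (10.9%, against 13.8% of all constant regions) and 1326 lower (16.4%, against 13.1%). The share of the calls that was higher, 39.9%, fell to 21.9% when places were taken among all rows of each list. It fell to 6.73% of 4234 calls when estimated tags were divided by each library's total tags, a scale on which the median constant region itself moved by -0.38 log2. Below, this second scale is called total-scaled tags, and log2 tag changes without that name are those after the medians of all constant regions were made equal.

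Among the 5 largest gains were regions in Robo1, Trmt9b, Chd9 and Hivep2. The Robo1 region (chr16:72786089-72786353), inside the gene of a Slit receptor in axon guidance, had places of 93.6, 94.4 and 92.0 in TetR-MYBTA, 2.31, 11.1 and 6.23 in TetR, and 85.5, 85.0 and 82.3 in WT. The TetR libraries stood apart from all 6 others, and the estimated tags rose by 2.44 ± 0.17 (log2, SE; limma adjusted p = 1.04e-15 on places). Of the 13 constant regions in Robo1, this was the one called higher against TetR, 2 were called lower and 10 were not called.

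The Chd9 region (chr8:90944160-90944429), in a chromatin remodeller gene, had 64.6, 73.2 and 74.7, then 2.86, 1.18 and 0.313, then 51.8, 52.0 and 68.6 in the same order of lines. Its TetR libraries lay below all 6 others (1.88 ± 0.20 log2 tags against TetR, SE; limma adjusted p = 7.48e-10 on places). The Trmt9b and Hivep2 regions were also at 0.150 to 6.94 in the TetR libraries and at 59.0 or above in TetR-MYBTA, with WT between, at 18.8 to 58.6.

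The 5 largest losses against TetR were all on the X chromosome, in Mid1 (2 regions), Msl3, Arhgap6 and Mbtps2. The first Mid1 region (chrX:169844851-169845094), in the gene of a microtubule-associated ubiquitin ligase, had 31.0, 36.9 and 23.7 in TetR-MYBTA, 99.9, 99.8 and 99.9 in TetR, and 47.3, 29.2 and 52.1 in WT. It was the TetR line that stood apart. Estimated tags per 10 M total tags were 10.7 ± 1.94, 96.0 ± 3.12 and 14.4 ± 2.33 (SD, n = 3), and the TetR value is a lower estimate because tag levels are skipped among the strongest peaks. The Msl3 region at its internal start, whose sequence is given above, had 63.7, 64.1 and 78.9, then 100, 99.9 and 100, then 58.2, 75.2 and 77.2. The Arhgap6 region, in the gene of a GTPase-activating protein, and the Mbtps2 region, in the gene of the site-2 protease, had 99.9 to 100 in the TetR libraries and 53.9 to 83.5 in the other 6.

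**Figure D3:**
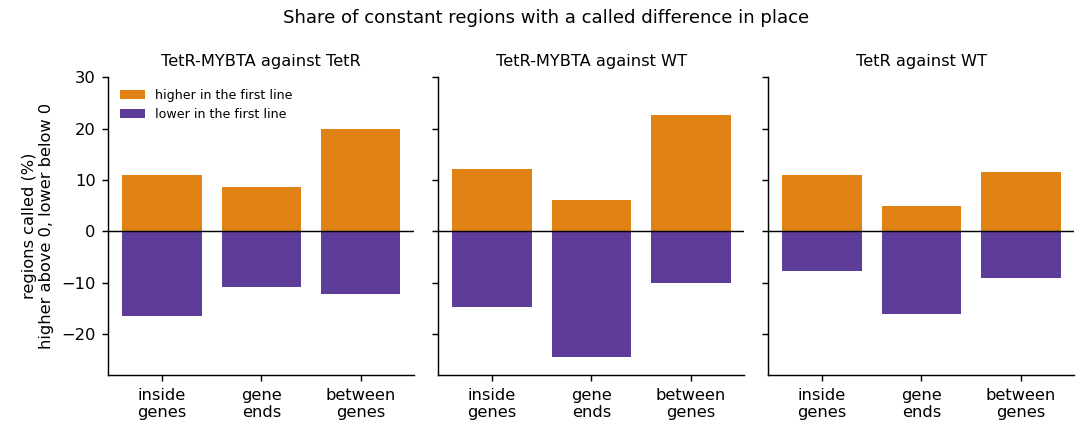
Share of constant regions (%) called higher (above 0) or lower (below 0) in the first-named line, for regions inside genes, at gene ends and between genes, in each comparison. Inside genes 10.9% were higher and 16.4% lower in TetR-MYBTA than in TetR.

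The third question was how TetR-MYBTA differed from unmodified cells. Against WT, 2168 of the 8061 regions (26.9%) were called, against 30.3% of all constant regions by the same limma test. There were 980 higher (12.2%, against 14.5% of all) and 1188 lower (14.7%, against 15.8% of all). The share that was higher, 45.2%, fell to 29.2% with places among all rows and to 19.7% on total-scaled tags, where the median constant region moved by -0.20 log2. This comparison and the previous one share the TetR-MYBTA libraries, so their calls are not independent. Side by side, 445 regions were higher in TetR-MYBTA than in both other lines and 569 lower than in both, and 4334 (53.8%) were called in no comparison.

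The largest gains against WT lay in Sntg1, Klhl1, Xkr4, Lrrc7 and Cntnap5a, of which Sntg1, Xkr4 and Cntnap5a are on chromosome 1. The Sntg1 region (chr1:8859244-8859585), in the gene of gamma-1 syntrophin, had 93.0, 88.8 and 78.3 in TetR-MYBTA, 12.5, 6.94 and 16.9 in TetR, and 3.74, 5.66 and 11.1 in WT. The TetR-MYBTA libraries stood far above all 6 others (2.06 ± 0.20 log2 tags against WT, SE; limma adjusted p = 2.17e-08 on places). The Klhl1 region (chr14:96270408-96270652), in the gene of a kelch protein of neurons, had 61.8, 61.1 and 66.7, then 8.17, 28.2 and 18.4, then 1.23, 2.15 and 3.86. The Lrrc7 region, in the gene of the postsynaptic protein densin, was at 53.2 to 62.5 in TetR-MYBTA and at 0.824 to 12.3 in the other 6 libraries.

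The largest losses against WT lay in Rab18, Slc17a9, Auts2, Akap7 and A4galt. The Auts2 region (chr5:131515761-131516058), in the gene of a partner of Polycomb complexes in neurons, had 3.83, 13.3 and 2.28 in TetR-MYBTA, 66.6, 59.3 and 72.2 in TetR, and 78.3, 63.5 and 60.4 in WT. TetR-MYBTA stood below both other lines, which overlapped (-1.37 ± 0.19 log2 tags against WT, SE; limma adjusted p = 2.80e-07 on places). The Slc17a9 region (chr2:180740353-180740713), in the gene of the vesicular nucleotide transporter, had 3.83, 28.1 and 0.298, then 49.1, 42.3 and 49.6, then 55.1, 70.3 and 72.2. The Akap7 start whose sequence is given above had 1.30, 0.0788 and 3.97, then 7.27, 42.3 and 23.0, then 23.4, 31.8 and 61.2. The Rab18 region, in the gene of a small GTPase of lipid droplets, was at 0.271 to 1.51 in TetR-MYBTA, but 1 TetR library, at 3.05, came close to it. The A4galt region, in the gene of the Gb3 synthase, was at 0.776 to 18.4 in both construct lines and at 63.5 to 78.4 in WT.

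**Figure D4:**
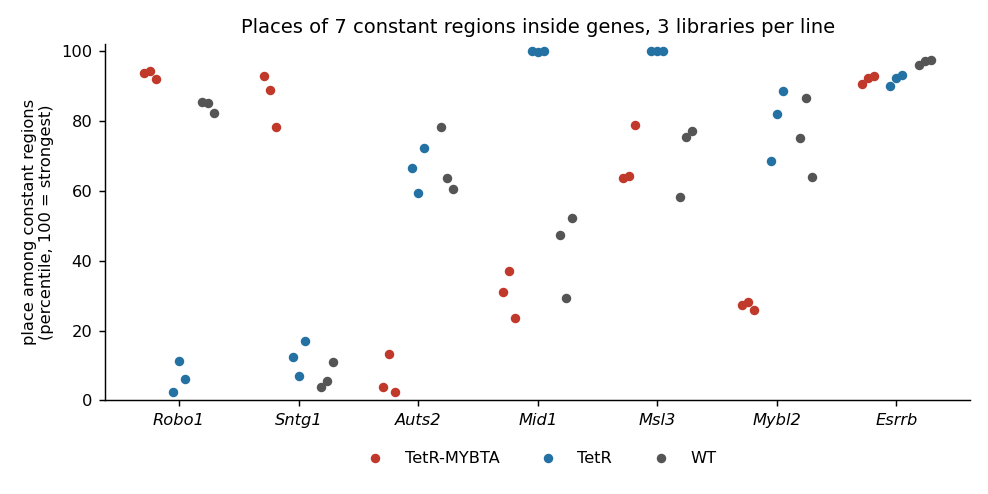
Place (percentile, 100 the strongest) of 7 constant regions inside genes, each named by its host gene, with 1 point per library and 3 libraries per line. The Robo1 region is low in TetR alone, the Sntg1 region is high in TetR-MYBTA alone, and the Mid1 region is near 100 in TetR alone.

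The last comparison set TetR against unmodified cells. In it 1509 regions (18.7%) were called, against 20.1% of all constant regions by the same limma test, 884 higher in TetR (10.97%, against 9.35% of all) and 625 lower (7.75%, against 10.7% of all). The count fell to 995 without TetR replicate 3. On total-scaled tags it was 2305, of which 88.5% were higher against 58.6% here, with the median constant region moved by 0.19 log2. The largest gains lay in Mid1 (2 regions), Arhgap6, Phex and Msl3, again all on X, and the largest losses in Robo1, Chd9, Hivep2, Dydc2 and Trmt9b. The Phex region (chrX:157379539-157379778), in the gene of an endopeptidase of phosphate balance, had 99.9 in each TetR library, 59.1, 67.4 and 49.1 in WT, and 78.7, 67.7 and 57.8 in TetR-MYBTA. The Dydc2 region (chr14:41066444-41066754) had 4.81, 0.409 and 15.3 in TetR, 46.1, 52.0 and 67.9 in WT, and 61.8, 56.8 and 65.7 in TetR-MYBTA. As in Robo1, the TetR libraries were the low ones. The other lines overlapped in Dydc2. In Robo1 the TetR-MYBTA libraries lay above those of WT, but that difference was not called (limma adjusted p = 0.0535 on places).

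Calls followed the chromosomes. From 88 Mb on chromosome 1, 167 of 435 regions (38.4%) were higher in TetR-MYBTA than in WT and 7 lower, and 159 (36.6%) were higher than in TetR. Below 44 Mb on chromosome 11, 69 of 148 (46.6%) were higher than in WT and 0 lower. On the rest of chromosome 11, 126 of 359 (35.1%) were higher than in TetR and 65 (18.1%) higher than in WT. On chromosome 19, 1 of 155 regions was higher than in WT and 52 (33.5%) lower. On X, 60 of 194 (30.9%) were higher in TetR than in WT and 1 lower, and on chromosome 6 from 68 to 84 Mb 11 of 23 (47.8%) were higher and 2 lower. X was not divided into stretches. Apex2, Rragb, Klf8, Nhs, Frmpd4 and Mid1, with 3 or 4 such higher regions each, all lie within chrX:150426974-169990798. Peaks between genes and at gene ends on these stretches moved as well: 45.2% of all constant regions on distal chromosome 1 and 54.6% on proximal chromosome 11 were higher in TetR-MYBTA than in WT. On the rest of chromosome 11, 41.5% of all constant regions were higher than in TetR and 15.9% higher than in WT. In TetR against WT, 31.3% on X and 47.9% on the chromosome 6 stretch were higher. The share over all constant regions of chromosome 19 is not given here. DNA copy number was not measured here, and its part in these stretches was not tested.

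When places were ranked within each chromosome, 63 regions on distal chromosome 1 were called higher than in WT and 26 lower, and 51 higher and 46 lower than in TetR. On proximal chromosome 11 the counts were 24 and 3 against WT and 20 and 21 against TetR. On the rest of chromosome 11 they were 26 and 40 against WT and 25 and 45 against TetR, and on chromosome 19 they were 13 and 12 against WT and 11 and 26 against TetR. Over all 8061 regions the counts within chromosomes were 855 and 973 against WT and 681 and 1188 against TetR. The same ranking within X left 40 regions higher in TetR than in WT and 27 lower. On total-scaled tags, distal chromosome 1 had 51 regions higher and 67 lower in TetR-MYBTA than in TetR, with a median of -0.01 log2 beside -0.45 over all 8061 regions, and 111 higher and 16 lower than in WT. Proximal chromosome 11 had 24 and 20 against TetR and 40 and 2 against WT, and the rest of chromosome 11 had 36 and 42 against TetR and 41 and 23 against WT. With chromosomes 1, 11 and X left out altogether, 1528, 1651 and 1206 regions were called in the 3 comparisons, in the order above. Of the 445 regions higher in TetR-MYBTA than in both other lines, 229 lay outside chromosomes 1 and 11, which held 14.8% of the 8061 regions.

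**Figure D5:**
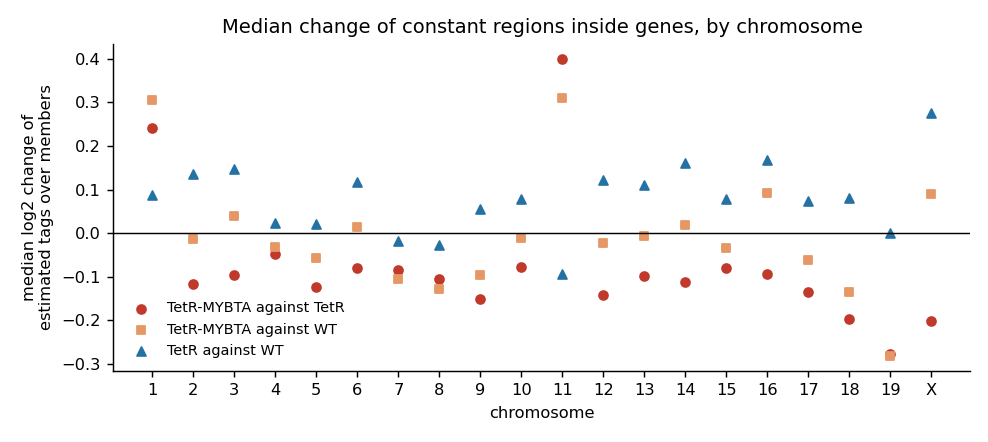
Median log2 change of estimated tags (medians of all constant regions made equal in each library) over the constant regions inside genes of each chromosome, for the 3 comparisons. For TetR-MYBTA against both lines, chromosomes 1 and 11 lie above 0, most others lie below 0, and chromosome 19 is the lowest. X is highest for TetR against WT. On total-scaled tags, where the median of all 8061 regions is -0.45 against TetR, the median of distal chromosome 1 is -0.01.

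In some genes the regions moved together; these were picked after their values were seen. All 9 regions of Dpp10, a potassium channel subunit gene on distal chromosome 1, were called higher in TetR-MYBTA than in WT and 7 of 9 higher than in TetR. When places were ranked within chromosomes, 4 and 2 of the 9 were called. In Abca13, an ABC transporter gene on proximal chromosome 11, 7 of 7 were higher than in TetR and 6 of 7 higher than in WT, and 4 and 5 within the chromosome. All 6 regions of Tex14, a germ cell gene on chromosome 11, were higher than in TetR, and 0 were called within the chromosome or on total-scaled tags.

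Genes whose regions fell together lay elsewhere. Of the 9 regions in Auts2, 6 were lower in TetR-MYBTA than in TetR and 6 lower than in WT, with 0 higher in either and 5 in each comparison within the chromosome. Rapgef5, a Rap GTPase exchange factor gene, and Ptprn2, a receptor phosphatase-like gene of secretory vesicles, both lie on chromosome 12, and all 4 regions of each were lower in TetR-MYBTA than in both lines. Those calls also stood at 4 of 4 in both comparisons within the chromosome and on total-scaled tags. The median change against TetR was -1.27 log2 tags in Rapgef5 and -1.09 in Ptprn2. These genes lie close together, Rapgef5 at chr12:117516526-117759737 and Ptprn2 at chr12:116485695-117278167. Whether their calls belong to a shared stretch was not tested. On X, all 4 regions of Klf8, a Krüppel-like factor gene, were higher in TetR than in WT (median 1.90 log2 tags), and all 4 were called within the chromosome. Ranking within a chromosome does not remove a shift of only part of that chromosome. In Tcf7l1, a repressor of the Wnt pathway in the chromosome 6 stretch, all 3 regions were higher in TetR than in WT and lower in TetR-MYBTA than in TetR.

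In the gene lists, the MYB family and its cofactors had 4 regions, 2 in Mybl2 and 1 each in Myb and Lin54. Of these, 3 were lower in TetR-MYBTA than in TetR, and 4 lower than in WT. Over all 8061 regions, 16.4% and 14.7% were lower. Within chromosomes 3 were lower in each comparison (14.7% and 12.1% of all), and on total-scaled tags 4 in each (48.99% and 24.6% of all). The second Mybl2 region (chr2:163075185-163075569) had places of 27.4, 28.1 and 25.9 in TetR-MYBTA, 68.6, 82.0 and 88.7 in TetR, and 75.1, 86.5 and 63.9 in WT. The TetR-MYBTA libraries lay below all 6 others, with -1.23 ± 0.17 log2 tags against TetR and -1.08 ± 0.17 against WT (SE; limma adjusted p = 5.50e-07 and 9.04e-06 on places). MYBL2 is the MYB protein of cycling cells. The Myb region (chr10:21144971-21145224) had 8.92, 2.38 and 5.81 in TetR-MYBTA, 40.7, 14.8 and 33.7 in TetR, and 28.0, 40.9 and 56.5 in WT. It reached at most 56.5, and its TetR-MYBTA libraries lay below all 6 others (limma adjusted p = 0.0153 against TetR and 0.00158 against WT). The median of the 4 regions was -0.56 log2 tags against TetR and -0.70 against WT, beside -0.06 and 0.01 over all 8061. Mybl1 held 0.

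The formative and primed list had 13 regions, of which 4 were lower in TetR-MYBTA than in TetR and 7 lower than in WT, with 0 higher in either, beside 16.4% and 14.7% lower over all 8061 regions. Within chromosomes 3 and 6 were lower (14.7% and 12.1% of all), and on total-scaled tags 9 and 8 (48.99% and 24.6% of all). Etv5, an ETS factor gene, had 3, all lower than in WT (median -0.61 log2 tags). The core and naive list was mixed, with 5 regions higher and 5 lower than in WT and 0 higher and 2 lower than in TetR. Against WT these became 1 and 3 within chromosomes and 3 and 7 on total-scaled tags. In Esrrb, 2 of 6 were lower in TetR-MYBTA than in WT and 3 of 6 lower in TetR than in WT, and against TetR 0 were called. The strongest Esrrb region (chr12:86501615-86502065) had places of 90.4, 92.3 and 92.9 in TetR-MYBTA, 89.9, 92.3 and 93.0 in TetR, and 96.1, 97.2 and 97.6 in WT. Both construct lines overlapped each other and lay below WT (limma adjusted p = 0.00443 and 0.00605). On total-scaled tags, 0 of the 6 Esrrb regions were lower in TetR than in WT, 4 were lower in TetR-MYBTA than in WT and 3 lower than in TetR.

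Tfcp2l1 went the other way, with 2 of 3 regions higher in TetR-MYBTA than in WT. Its second region (chr1:118642696-118642932) had 94.0, 92.0 and 94.7 in TetR-MYBTA, 87.4, 82.9 and 92.1 in TetR, and 73.4, 71.3 and 72.8 in WT (limma adjusted p = 1.00e-05 against WT). Tfcp2l1 lies on distal chromosome 1, and ranked within that chromosome 1 of 3 was called. Tbx3, a T-box factor gene of the naive state, had 1 region, lower than in WT (limma adjusted p = 0.0261). Tet2 had 4, of which 1 was higher in TetR-MYBTA than in WT and 1 higher in TetR than in WT. Among the 117 neural regions, 16 were higher and 19 lower than in TetR, and 20 higher and 11 lower than in WT. Against WT these became 25 higher and 8 lower within chromosomes and 8 higher and 17 lower on total-scaled tags, so the direction depends on the scaling.

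The other lists are given as counts called higher and lower against TetR and then WT, beside 10.9% higher and 16.4% lower, then 12.2% higher and 14.7% lower, over all 8061 regions. In that order, signalling genes had 2 higher and 4 lower, then 0 and 1. Chromatin regulators had 3 higher and 9 lower, then 4 and 10. DNA methylation genes had 0 and 1, then 2 and 3, trophoblast genes 0 and 2, then 0 and 3, and blood progenitor genes 4 and 4, then 6 and 4. Mesoderm and endoderm genes had 0 and 1, then 1 and 0, germ cell genes 0 and 0, then 0 and 1, fibroblast genes 0 and 1, then 1 and 0, and housekeeping genes 0 and 0, then 0 and 1. Ranked within chromosomes, the 20 blood progenitor regions had 1 higher and 5 lower, then 2 and 4. Over all 8061 regions that ranking gave 8.45% higher and 14.7% lower, then 10.6% and 12.1%. On total-scaled tags against TetR, where 48.99% of all 8061 were lower, chromatin regulators had 0 higher and 34 lower (of the 47 regions in a single gene), DNA methylation genes 0 and 9, blood progenitor genes 1 and 10, signalling genes 0 and 7, and trophoblast genes 0 and 5.

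Regions at internal starts ranked higher than the others. The 766 at a start of their host gene had a median place of 60.5, against 39.7 for the 7216 off annotated starts. Against WT, 195 of the 766 (25.5%) were lower in TetR-MYBTA and 46 (6.01%) higher, and off starts 979 (13.6%) were lower and 927 (12.8%) higher. Against TetR, 91 (11.9%) were lower and 66 (8.62%) higher at starts, and 1225 (17.0%) lower and 807 (11.2%) higher off starts. In TetR against WT, 113 (14.8%) were lower and 54 (7.05%) higher at starts, and 504 (6.98%) lower and 825 (11.4%) higher off starts. A larger share at starts than off starts was lower than WT in both construct lines, in comparisons that share the WT libraries, and in TetR-MYBTA against TetR the larger share lower was off starts. Against WT and within chromosomes, the TetR-MYBTA counts were 147 lower and 45 higher at starts and 815 and 804 off starts, and on total-scaled tags 304 and 17 at starts and 1655 and 467 off starts. Whether the shares at and off starts differ was not tested. At gene ends, 24.3% were lower and 6.13% higher. Windows under the 195 lower regions had a CpG ratio above 0.6 in 79.3% of 213 cases, and those under the 46 higher regions in 44% of 50. Mean strength, GC content and start position move together in these sets, and their parts in the calls were not tested.

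The position of a peak within its region was measured as well. Overlapping peaks were joined in a chain, so peaks of different libraries in a region need not overlap each other. The width of the joined region limits how far their centres can differ. Over the 8022 regions with exactly 1 peak per library, peak centres varied with a median SD of 21.3 bp. With limma across 25883 such constant regions, 3 regions inside genes shifted between TetR-MYBTA and TetR, 5 between TetR-MYBTA and WT, and 2 between TetR and WT, against 0.0425, 0.058 and 0.0502% of all. Unadjusted limma p under 0.05 was reached by 492, 474 and 439 of the 8022 regions. At gene ends it was reached by 560, 519 and 454 of 7654, and between genes by 545, 581 and 527 of 10207. Without adjustment some regions pass this level when nothing shifts, so these counts are not counts of shifts. With the replicate number as a block, 0 were called in each comparison, and leaving out 1 library gave 0 to 10, 0 to 5 and 0 to 3.

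The widest shift was in Ildr2 (chr1:166309066-166309588), whose peak centre lay at -123, -167 and -207 bp from the region's mean in TetR-MYBTA, 116, 118 and 94.3 bp in TetR, and 43.6, 22.4 and 102.2 bp in WT (limma adjusted p = 0.0232 against TetR). The TetR-MYBTA and TetR centres lay further apart than a peak is wide (193 to 208 bp), so those peaks did not overlap each other. In Pkhd1, the polycystic kidney gene fibrocystin, the centres were at 151, 153 and 155 bp in TetR-MYBTA and between -116 and -25.2 bp in the other 6 libraries (limma adjusted p = 0.0197 against TetR and 0.00908 against WT). The Ildr2 and Pkhd1 regions were weak, with mean places of 12.8 and 9.95. In Rora, a retinoid-related orphan receptor gene, TetR stood apart, with 103, 61.7 and 75.9 bp against -52.2 to -32.7 bp elsewhere. In Rsad1, where the region lies at a start of the gene, WT stood apart, with -82.4, -154 and -139 bp against 42.2 to 92.2 bp in the construct lines. The other regions called, in Ppp6r3 and Elavl2, shifted by -125 and -75.9 bp in TetR-MYBTA against WT.

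The limits of the choice can be seen at its edges. Just beyond 1 kb from a gene end lay regions in Crygn and Nectin1 (1.001 kb) and in Pnrc1 and Acbd5 (1.002 kb), with mean places of 51.1, 54.7, 82.5 and 62.4. Just within 1 kb, and so left out, lay regions in AU022252 (0.999 kb), Cacng7 (0.998 kb), 0610010F05Rik (0.996 kb) and Jade3 (0.993 kb), with mean places of 11.3, 48.0, 28.0 and 66.1. Of 45246 regions inside genes, 17.8% had a peak in all 9 libraries, 27.6% in 1, and 2896 in 8. The library missing from those 2896 was TetR-MYBTA replicate 3, which has the shortest list, in 1118 (38.6%). The strongest regions missing from 1 list lay in Cetn3, Arrdc3, Vegfd and Sin3b, at mean places of 99.4, 99.3, 98.7 and 96.2 in the lists that had them.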

How the data were processed

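The authors deposited 1 peak list per library, called by HOMER in each library separately per the file headers, at FDR 0.001 with local enrichment of 4-fold within 10 kb and a cutoff of 11 or 12 tags. The submitters' processing notes also name Trim Galore 0.6.10, Bowtie2, Picard, deepTools 3.5.5, HOMER 4.11 and mm10. The sources used here do not say whether reads were shifted or blacklisted sites removed. Each deposited row has a score of 1. Starts and ends, in base pairs, are positions deposited by the authors, written here counting from 1.

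Rows were found to be ordered by a hidden strength, and ties within it by chromosome and start. Tie blocks were read as levels 0.5 tag apart, ending at 8.5 to 9.5 tags, and their sums came to 99.8 to 99.9% of the tags in peaks given by the headers. Tags per peak are therefore estimates and too low for the strongest peaks. The plan used row order; ties here share a place, and row order as listed was run as an alternative. Places became normal scores, fitted for all 3 lines with limma 3.58.1 (R 4.3.3, trend on, no covariate, adjusted p under 0.05 over 26020 regions). Centre shifts were fitted with limma without trend. Library medians and shares were tested by exact permutation, two-sided. Before use, the fit was run on simulated counts drawn independently for each region, without shifts of whole chromosomes or stretches. That run does not show how the fit behaves where stretches move together. Replicate numbers did not pair the libraries (correlation of deviations -0.017 to 0.013 for the same number).

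Genes, starts and sequences came from RefSeq (GRCm38.p6), 21887 protein-coding genes; exons and introns were not used here. Stretches on chromosomes 1, 6 and 11 were bounded as in earlier work on these data. Regions named are the 10 strongest, the 5 largest called differences each way without overlap between groups, the largest called centre shifts (3 per comparison by rule, with Ppp6r3 and Elavl2 added after their values were seen), genes with most regions (8 by number, with Cntn5 tied for the last place, 8 by density, 3 per list), regions nearest the limits, and those of the MYB and pluripotency genes; some regions that the rule names are not reported here. The regions and lists were chosen with earlier results of these data known. Scripts ran on Python 3.11.15 with scipy 1.17.1, pandas 2.3.3, numpy 2.4.6 and, for plots, matplotlib 3.10.9.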

Additional observations from a re-analysis of the deposited data

How the results depend on the processing

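The number of regions was 3699 in the upper 50% of each list and 8148 to 9179 when 1 library was left out. Counts of place calls were 1734 to 2167 for TetR-MYBTA against TetR, 1644 to 2126 against WT and 995 to 1709 for TetR against WT with 1 library left out, the lowest of the last without TetR replicate 3. On total-scaled log2 tags, chosen after seeing the data, 4234 regions were called for TetR-MYBTA against TetR and 2305 for TetR against WT. Ties broken as listed, tags with equal medians, and leaving out chromosomes 1, 11 and X were also added after seeing the data. With the replicate number as a block, counts were 2206, 2159 and 1514, and the centre shifts fell to 0 in each comparison; with 1 library left out they were 0 to 10, 0 to 5 and 0 to 3. The numbers do not pair the libraries, and 4 of 9 correlated best with their own number. Of the 1509 regions called for TetR against WT, 947 to 1030 were also called when any 1 of the TetR or WT libraries was left out.

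The difference of median place ranged from -3.296 to -2.749 (TetR-MYBTA against TetR), -0.304 to 0.188 (against WT), 2.715 to 3.261 (TetR against WT) and -1.905 to -1.120 (against the other 6) with 1 library left out. TetR-MYBTA against WT turned to 0.315 at 2.5 kb from gene ends, and to 0.188, 0.013 and 0.173 without TetR-MYBTA replicate 1, TetR-MYBTA replicate 3 and WT replicate 2. The share of the first rows turned to 0.270 at 2.5 kb, 0.137 on autosomes other than 1 and 11, and 0.213 in the first 5000 rows; the causes were not tested. Estimated tags rest on 9 to 195 tags per peak, and weak regions are close to the calling threshold.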
